A study of Homo sapiens with 17 samples.

Results

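The Notch pathway was followed through 10 genes of the 60662 in the count table: the receptors NOTCH1, NOTCH2 and NOTCH3, the ligands JAG1 and JAG2, the receptor modifier LFNG, and the HES and HEY family genes HES1, HES4, HES6 and HEY1. They were chosen by symbol for their roles in the pathway, with earlier results of these data known. Each was found in the table under its GENCODE symbol. RNA was sequenced from Ishikawa cells, a line derived from a human endometrial adenocarcinoma that is used to model the epithelium of the endometrium. The cells were cultured in medium with charcoal-stripped serum and harvested after 24 h. There were 3 untreated control cultures, 3 vehicle control cultures that received Nap and ethanol (70% in the labels), 2 cultures that received only Nap, and 3 cultures that received Nap and progesterone (P4). The labels do not define Nap. They list P4 at 0.1 and 1.0 mg/ml without tying a concentration to a culture, and they name ethanol for the vehicle control but not for the P4 cultures. The paper that reported the data gives 10 μg/ml P4 for the sequenced cells in a figure legend, while its methods list P4 in mg/ml. Between P4 and vehicle control cultures, an effect of P4 and an effect of ethanol cannot be told apart. A further 6 libraries are from cultures given recombinant PSAT1, an enzyme of serine synthesis, with or without P4. Their titles contradict their column headings (3 headed PSAT1_P4 are titled PSAT1, and 3 headed PSAT1 are titled PSAT1_P4), so they were placed in no group and only their values are given.

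Notch receptors sit in the plasma membrane and are activated by Jagged or Delta ligands on a neighbouring cell. Ligand binding exposes the receptor to proteolysis, and the freed intracellular part enters the nucleus and joins the DNA-binding protein RBPJ. The complex turns on genes, among them some members of the HES and HEY families of transcriptional repressors. Fringe enzymes, of which LFNG is a member, add sugars to the receptor and so alter how it responds to each class of ligand, and in the endometrium the pathway is known for its part in epithelial proliferation and in decidualization of the stroma.

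Library totals ranged from 4999521 counts (vehicle control replicate 1) to 19704493, so 3 counts corresponded to between 0.156 and 0.579 CPM (counts scaled per 1000000 of the TMM-normalized library size), a limit that covers counting error only. All 8 epithelial markers reached 1 CPM, with sums of 1572 to 1806 CPM in control, 1662 to 1689 CPM in vehicle control and 1260 to 1364 CPM in P4 cultures. The 6 stromal markers summed to between 92.9 and 159.3 CPM in control, 90.2 and 148.7 CPM in Nap only, 71.5 and 93.8 CPM in vehicle control, and 66.5 and 75.3 CPM in P4 cultures, where DCN was at 0. The 5 immune markers summed to at most 3.09 CPM and the 4 endothelial markers to at most 1.76 CPM in the labelled cultures, with CDH5 at 0 throughout. The epithelial sum was thus lower in P4 cultures, and the stromal sum in P4 cultures lay below every control and Nap only culture, with vehicle control between them and overlapping both. Their part in the results was not tested. In bulk RNA, fewer cells expressing a gene and less RNA per cell cannot be told apart. The labels call the replicates biological but do not say how the cultures were kept separate, so the p-values measure the spread between these cultures.

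The stretches before the RefSeq starts of 3 members of the HES family are shown because their transcripts differed in pattern. HES1 was high in vehicle control and P4 cultures, HES6 was high in P4 cultures, and HES4 was low throughout. Each runs 5′ to 3′ along the strand of the gene over the 250 bases before the RefSeq start (GRCh38.p14), and capitals mark TGGGAA, the core letters bound by RBPJ, or its reverse complement TTCCCA.
HES1 (chr3:194135898-194136147, plus strand): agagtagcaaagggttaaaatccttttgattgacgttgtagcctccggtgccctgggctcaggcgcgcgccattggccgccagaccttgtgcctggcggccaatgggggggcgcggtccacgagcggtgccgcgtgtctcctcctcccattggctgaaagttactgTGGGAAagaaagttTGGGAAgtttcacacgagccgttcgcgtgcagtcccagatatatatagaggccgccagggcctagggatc
HES4 (chr1:1000098-1000347, minus strand): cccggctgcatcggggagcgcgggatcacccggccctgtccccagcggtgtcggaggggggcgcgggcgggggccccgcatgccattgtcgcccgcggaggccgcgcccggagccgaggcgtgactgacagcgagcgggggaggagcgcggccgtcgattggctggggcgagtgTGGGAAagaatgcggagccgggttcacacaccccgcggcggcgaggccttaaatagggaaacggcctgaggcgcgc
HES6 (chr2:238240039-238240288, minus strand): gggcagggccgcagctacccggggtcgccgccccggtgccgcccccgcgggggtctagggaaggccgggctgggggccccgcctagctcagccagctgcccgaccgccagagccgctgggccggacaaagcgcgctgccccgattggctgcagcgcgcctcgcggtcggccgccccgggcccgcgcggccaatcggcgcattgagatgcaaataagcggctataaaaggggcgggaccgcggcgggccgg

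The RBPJ letters occurred at 2 places in the HES1 stretch, with first bases at -84 and -70 (the base before the start being -1), and at 1 place in HES4, at -76. The HES6 stretch held 0 matches. That stretch lies inside the GENCODE span of HES6, which reaches chr2:238240662, so the bases before the GENCODE start were not searched. The HES4 stretch overlaps its gene in part, which reaches chr1:1000172 in GENCODE. Of 35116 RefSeq promoter stretches of the same length, 20.8% held these letters. The N-box CACNAG, whose letters HES proteins can bind, was found at 3 places in HES1 and at 0 places in HES4 and HES6, against 32.0% of all stretches with a match. Among the other members, NOTCH3 held the N-box at -211. LFNG has more than 1 entry. Its entry at chr7:2517613-2517862, within the gene, held the RBPJ letters at -248 and the N-box at -53. Its entry at chr7:2512279-2512528, just before the gene start, held 0 matches to either. CACGCG, another HES binding sequence, was found at 2 places in HES1 and 1 place in JAG2, against 9.72% of all stretches. The letters ACANNNTGT, from the consensus of the progesterone receptor, occurred in 0 of the 9 members with an entry and in 4.61% of all stretches. All motifs were sought on both strands, the letters of the different motifs can overlap, and a match is a description of the letters rather than a binding site.

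NOTCH1, a receptor expressed in many epithelia (ENSG00000148400.12, chr9:136494433-136545786, minus strand, GRCh38), was lower with P4 than in every other group. It stood at 124.5, 105.3 and 108.3 CPM in control, 107.2 and 122.7 CPM in Nap only, 143.5, 157.2 and 149.4 CPM in vehicle control, and 66.3, 68.3 and 65.5 CPM in P4 cultures. The P4 cultures lay apart from all others and the vehicle controls were the highest. NOTCH1 transcript fell 2.23-fold in P4 compared with vehicle control cultures (log2 fold change -1.15, SE 0.07, adjusted p = 6.9e-08, quasi-likelihood test of edgeR, Benjamini-Hochberg adjusted over all genes tested). Against control, which shares the P4 cultures with that comparison, the log2 fold change was -0.76 (adjusted p = 3.2e-06, edgeR), and against Nap only it was -0.78 (adjusted p = 4.1e-05, edgeR). Vehicle control cultures held 1.33-fold more than controls (log2 fold change 0.41, adjusted p = 7.2e-04, edgeR). The paper that reported these data also measured NOTCH1 by RT-qPCR in Ishikawa cells treated with P4 for 24 h. It reported no effect of P4 on NOTCH1 between any groups. Why the measurements differ was not tested.

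NOTCH2, the receptor with the highest level per kilobase of exon among the 3 in control and P4 cultures (ENSG00000134250.20, chr1:119911553-120069626, minus strand), moved little. It stood at 221.3, 195.1 and 223.1 CPM in control, 219.0 and 209.0 CPM in Nap only, 236.8, 245.8 and 252.6 CPM in vehicle control, and 264.2, 293.8 and 262.1 CPM in P4 cultures. The P4 cultures were above the vehicle controls without overlap, but by a small margin. The log2 fold change was 0.17 (SE 0.07, adjusted p = 0.041, edgeR), and the call was lost under upper-quartile scaling (log2 fold change 0.09, adjusted p = 0.26) and without any 1 of 5 cultures, with adjusted p-values from 0.06 to 0.12 over vehicle control replicates 1, 2 and 3 and P4 replicates 2 and 3. Against control the log2 fold change in P4 was 0.36 (adjusted p = 0.0038, edgeR), and in vehicle control it was 0.20 (adjusted p = 0.057, edgeR). Reads shared with the near-identical copies of NOTCH2 may be missing from these counts. Of those copies, NOTCH2NLC was tested and stood at a mean of 2.48 CPM in vehicle control and 2.97 CPM in P4 cultures (log2 fold change 0.24, adjusted p = 0.42, edgeR).

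NOTCH3, best known in smooth muscle and in many carcinomas (ENSG00000074181.9, chr19:15159038-15200981, minus strand), was raised in the vehicle controls. Its values were 49.5, 52.5 and 48.2 CPM in control, 41.6 and 52.5 CPM in Nap only, 62.1, 67.8 and 72.6 CPM in vehicle control, and 50.3, 46.6 and 51.4 CPM in P4 cultures. The vehicle controls lay above all others, while P4, control and Nap only cultures overlapped. The level fell with P4 against vehicle control (log2 fold change -0.44, SE 0.08, adjusted p = 6.4e-04, edgeR) and was higher in vehicle control than in control cultures (0.43, adjusted p = 6.3e-04, edgeR). Against control, P4 cultures differed by -0.02 on the log2 scale (95% interval from -0.20 to 0.17, adjusted p = 0.88, edgeR). These 95% intervals are normal intervals from the SE of each edgeR fit, so they can be narrower than the test implies. That SE was taken as the absolute log2 fold change divided by the square root of the F statistic.

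**Figure D1:**
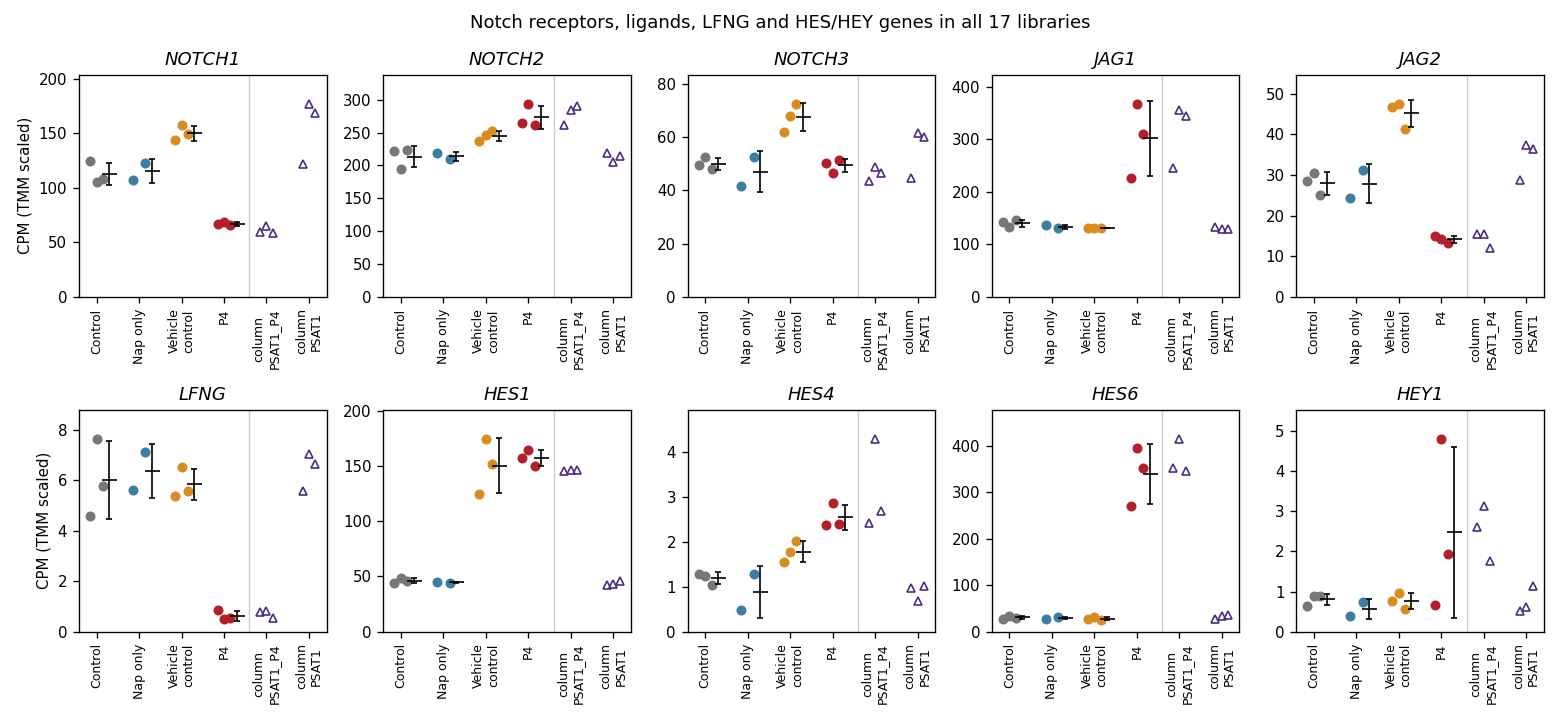
Level of each of the 10 genes in every library, in CPM on a linear axis from 0, with a filled point per control, Nap only, vehicle control and P4 culture, a bar for the mean ± SD of each of these groups, and open triangles for the 6 PSAT1 libraries by column heading. HES6 and LFNG show the widest separation of P4 from vehicle control cultures, while for HES1 the 3 vehicle controls (124.6 to 174.9 CPM) sit with the 3 P4 cultures and above the 5 control and Nap only cultures.

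The 2 Jagged ligands moved in opposite directions with P4. JAG1 (ENSG00000101384.12, chr20:10637684-10673999, minus strand), a ligand needed for the development of many organs, stood at 141.4, 133.1 and 145.7 CPM in control, 136.2 and 130.4 CPM in Nap only, 130.0, 130.0 and 130.4 CPM in vehicle control, and 226.6, 367.3 and 310.5 CPM in P4 cultures. The P4 cultures lay above all others and spread more widely than any other group. JAG1 rose 2.35-fold compared with vehicle control (log2 fold change 1.23, SE 0.14, adjusted p = 6.9e-05, edgeR), and by 1.11 and 1.18 on the log2 scale against control and Nap only. Between vehicle control and control the log2 fold change was -0.11 (95% interval from -0.25 to 0.02, adjusted p = 0.25, edgeR).

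JAG2 (ENSG00000184916.9, chr14:105140981-105168824, minus strand), the second Jagged ligand, was at 28.6, 30.6 and 25.0 CPM in control, 24.4 and 31.3 CPM in Nap only, 46.7, 47.6 and 41.4 CPM in vehicle control, and 15.1, 14.1 and 13.3 CPM in P4 cultures. Vehicle controls lay above all other cultures and P4 cultures below them, while control and Nap only cultures overlapped. JAG2 fell 3.15-fold with P4 against vehicle control (log2 fold change -1.66, SE 0.10, adjusted p = 9.2e-08, edgeR) and by 0.99 on the log2 scale against control (adjusted p = 1.9e-06, edgeR). In vehicle control it was 1.59-fold higher than in control cultures (log2 fold change 0.67, adjusted p = 3.4e-05, edgeR). JAG2, like NOTCH1 and NOTCH3, was higher in vehicle control than in control cultures, so the size of its fall with P4 differed between the 2 references.

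LFNG (ENSG00000106003.13, chr7:2512529-2529177, plus strand), the Fringe best known from the segmentation of the embryo, was much lower with P4 than in any other group. It stood at 4.58, 7.66 and 5.80 CPM in control, 5.61 and 7.12 CPM in Nap only, 5.40, 6.54 and 5.59 CPM in vehicle control, and 0.859, 0.507 and 0.523 CPM in P4 cultures. The last group rests on 6 to 9 counts per library, and it lay below all others. The level was 9.31-fold lower than in vehicle control (log2 fold change -3.22, SE 0.26, adjusted p = 1.1e-06, edgeR), with -3.27 and -3.34 on the log2 scale against control and Nap only. Vehicle control and control differed by -0.03 (95% interval from -0.41 to 0.34, adjusted p = 0.92, edgeR).

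HES1 (ENSG00000114315.4, chr3:194136145-194138732, plus strand), the repressor most often read as a sign of Notch activity, changed with the vehicle. It stood at 43.6, 48.1 and 45.7 CPM in control, 45.1 and 44.2 CPM in Nap only, 124.6, 174.9 and 151.9 CPM in vehicle control, and 157.6, 164.5 and 149.6 CPM in P4 cultures. The first 2 groups did not overlap with the last 2, and vehicle control and P4 cultures overlapped. HES1 was 3.29-fold higher in vehicle control than in control cultures (log2 fold change 1.72, adjusted p = 3.9e-10, edgeR) and 3.42-fold higher than with Nap only (1.77, adjusted p = 7.8e-05, edgeR). P4 differed from vehicle control by 0.07 on the log2 scale (SE 0.10, 95% interval from -0.13 to 0.27, adjusted p = 0.58, edgeR), whereas against control it was higher by 1.78 (adjusted p = 7.8e-11, edgeR). Since the labels do not say whether P4 cultures received ethanol, the parts of P4 and ethanol in the HES1 level of these cultures cannot be told apart.

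HES6 (ENSG00000144485.11, chr2:238238267-238240662, minus strand), a family member known to oppose HES1 and to promote neuronal differentiation, had the largest rise of the 10 genes in each P4 comparison. Its values were 26.9, 33.9 and 30.1 CPM in control, 27.4 and 31.1 CPM in Nap only, 26.8, 30.8 and 25.2 CPM in vehicle control, and 270.0, 395.7 and 353.3 CPM in P4 cultures. The P4 cultures lay far above all others, and the other 3 groups overlapped. The rise was 12.4-fold against vehicle control (log2 fold change 3.63, SE 0.14, adjusted p = 1.3e-08, edgeR), 11.2-fold against control and 11.6-fold against Nap only. An overlapping antisense gene held at most 18 counts in a library, and the strand setting of the counting is not given in the sources used here.

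HES4 (ENSG00000188290.10, chr1:998962-1000172, minus strand), a relative of HES1 without a mouse counterpart, had 6 to 34 counts per labelled library. It stood at 1.29, 1.25 and 1.04 CPM in control, 0.474 and 1.29 CPM in Nap only, 1.54, 1.78 and 2.03 CPM in vehicle control, and 2.39, 2.88 and 2.39 CPM in P4 cultures. The order was control, vehicle control and P4 without overlap. P4 was higher than control by 1.08 on the log2 scale (SE 0.26, adjusted p = 0.0018, edgeR), while neither step passed: 0.49 for P4 against vehicle control (adjusted p = 0.098, edgeR) and 0.59 for vehicle control against control (adjusted p = 0.13, edgeR). Against Nap only the value was 1.49 (adjusted p = 0.0064, edgeR), but without Nap only replicate 1 it was 0.98 and the adjusted p was 0.073.

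HEY1 (ENSG00000164683.17, chr8:79764010-79767863, minus strand), a repressor that acts in the developing heart and vessels, was low and uneven. It stood at 0.646, 0.886 and 0.892 CPM in control, 0.395 and 0.746 CPM in Nap only, 0.771, 0.967 and 0.567 CPM in vehicle control, and 0.668, 4.82 and 1.94 CPM in P4 cultures. P4 replicate 1 lay within the vehicle controls, and P4 replicate 2, with 57 counts, held most of the rise. The log2 fold change was 1.70 (SE 0.64, adjusted p = 0.045, edgeR), but without P4 replicate 2 it was 0.84 and the adjusted p was 0.15. The call was also lost when vehicle control replicate 1, 2 or 3 was left out, with adjusted p-values of 0.076, 0.076 and 0.14. Against control and Nap only the log2 fold changes were 1.63 (adjusted p = 0.037, edgeR) and 2.09 (adjusted p = 0.045, edgeR), and without P4 replicate 2 the adjusted p-values were 0.12 and 0.055. The call against control was also lost without control replicate 1 (adjusted p = 0.091), control replicate 2 (0.071) or P4 replicate 3 (0.068), and that against Nap only without Nap only replicate 1 (0.18) or 2 (0.097).

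Of the 10 genes, 8 were called in P4 against vehicle control, 4 higher and 4 lower, where 53.0% of the 16540 genes tested were called. The 6 members called beyond 1 log2 unit were NOTCH1, JAG1, JAG2, LFNG, HES6 and HEY1, against 12.4% of all genes. The cultures of the 2 groups did not overlap for 8 members, against 60.5% of all genes. The median absolute log2 fold change was 1.19 over the members and 0.38 over all genes tested. As the 10 genes were chosen with earlier results of these data known, these counts and medians are a description and not a test. In P4 against control, 9 of 10 were called, 6 higher and 3 lower, with a background of 54.8%, and in P4 against Nap only the count was 9 of 10 with a background of 49.7%. The NOTCH2 call against Nap only was lost without Nap only replicate 2 (adjusted p = 0.069). Since these 3 comparisons share the P4 cultures, they are not independent.

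Vehicle control against control called 4 of 10 members, NOTCH1, NOTCH3, JAG2 and HES1, and each was higher. Over all genes 22.6% were called and 11.9% were called higher. Vehicle control against Nap only called those 4 and NOTCH2, 5 of the 9 members tested, again each higher, against 23.8% of genes called and 12.7% called higher. The NOTCH2 call there was lost with the replicate number as a block (adjusted p = 0.069). Separately, it was lost with no filter on low counts (adjusted p = 0.067), with all 4 groups in the fit, and without vehicle control replicate 2 or 3 or Nap only replicate 2. Nap only against control called 0 of 10 members, and 0.0% of all genes. In that comparison edgeR gave 217 of 17166 genes and 0 members at an unadjusted p under 0.05, and DESeq2 gave 49 genes unadjusted, 1 gene adjusted and 0 members.

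**Figure D2:**
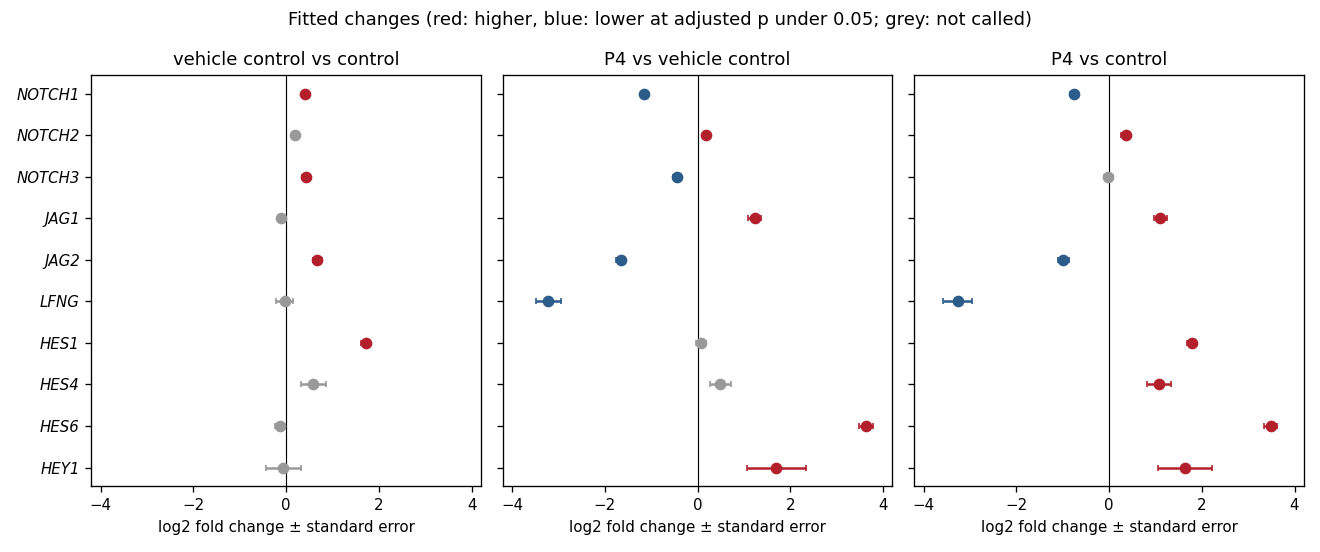
Fitted log2 fold change with its standard error for the 10 genes in vehicle control against control, P4 against vehicle control and P4 against control cultures, coloured by direction where the adjusted p was under 0.05. HES1 moves in the left and right panels (1.72 and 1.78) and not in the middle one (0.07), while HES6 moves in the middle and right panels (3.63 and 3.49) and not in the left one (-0.14).

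Levels of different genes were compared as CPM per kilobase of exon. In control cultures HES1 was highest at 22.2 ± 1.10 CPM per kilobase (SD, n = 3), followed by JAG1 at 15.1 ± 0.686 and HES6 at 14.9 ± 1.72, which differed by less than their spread. NOTCH2 at 12.7 ± 0.934 and NOTCH1 at 10.9 ± 0.994 came next, then NOTCH3 at 5.33 ± 0.239 and JAG2 at 4.38 ± 0.441. LFNG at 1.76 ± 0.455, HES4 at 1.07 ± 0.121 and HEY1 at 0.250 ± 0.0434 closed the order. The receptors and Jagged ligands were thus within one order of magnitude of each other, with the last 3 genes well below. In P4 cultures the order changed, with HES6 first at 166.7 ± 31.4 CPM per kilobase, HES1 at 76.3 ± 3.63 and JAG1 at 32.4 ± 7.62. NOTCH2 was at 16.3 ± 1.06, NOTCH1 at 6.43 ± 0.140 and NOTCH3 at 5.26 ± 0.266. HES4 at 2.28 ± 0.251 and JAG2 at 2.22 ± 0.139 could not be separated, HEY1 stood at 0.767 ± 0.658, and LFNG was last at 0.184 ± 0.0581.

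**Figure D3:**
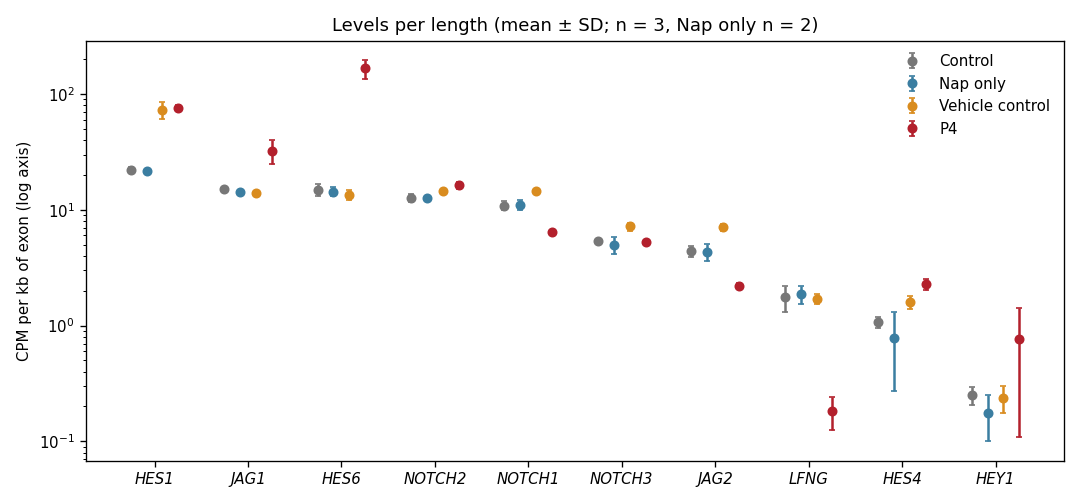
Mean level per kilobase of exon (CPM per kilobase, log axis, bars showing the SD) for the 10 genes, ordered by their level in control cultures, with a point for each labelled group. In P4 cultures HES6 moves from 14.9 in control to the highest level of the 10 (166.7), and LFNG from 1.76 to the lowest (0.184).

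The rest of the pathway was described with a list of 73 genes grouped by role. Of these, 58 were tested in P4 against vehicle control and 38 were called, 25 higher and 13 lower, which is 65.5% against 53.0% of all genes. Their median absolute log2 fold change was 0.36, against 0.38 over all genes. Of the 58, 10 were called beyond 1 log2 unit, where 12.4% of all genes were. The 4 ID genes described below are among these 10. The list was made with earlier results of these data known, so its counts are a description and not a test. Against control 35 of 58 tested genes were called (60.3%, against 54.8% of all genes), 27 higher and 8 lower. Against Nap only 35 of 60 were called (58.3%, against 49.7% of all genes), 29 higher and 6 lower, with the P4 cultures shared. Among the Fringe and fucose enzymes that modify the receptor, MFNG fell from 3.28, 4.83 and 5.11 CPM in vehicle control to 1.53, 0.507 and 0.374 CPM in P4 cultures (log2 fold change -2.55, adjusted p = 1.1e-04, edgeR), POFUT1 fell by 0.39 on the log2 scale, and RFNG rose by 0.40. The RFNG call was lost without vehicle control replicate 3 (adjusted p = 0.05, edgeR). With LFNG, 2 of the 3 Fringes were thus lower with P4. Among Delta ligands, DLL1 stood at 1.54, 1.34 and 0.729 CPM in vehicle control and 1.91, 3.47 and 2.92 CPM in P4 cultures (log2 fold change 1.30, adjusted p = 0.005, edgeR).

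Both proteases that make the first cut in the bound receptor rose, ADAM17 by 0.86 and ADAM10 by 0.62 on the log2 scale, and FURIN, which processes the receptor on its way to the surface, fell by 0.46, though it was not called against Nap only (-0.26, adjusted p = 0.059, edgeR). The other 6 genes of proteolysis, among them the subunits of gamma-secretase, were not called. The 3 tested ubiquitin ligases that act on ligands rose, with MIB2 at 0.57 and MIB1 at 0.34, although MIB1 was not called against control (0.18, adjusted p = 0.12, edgeR). Of 6 tested inhibitors and turnover genes 4 rose, ITCH by 0.51 and FBXW7 by 0.47 among them. In the nuclear complex, KAT2B (0.52) and SNW1 (0.33) rose while MAML1 fell by 0.46 and KAT2A by 0.28, and 5 of 10 coactivators were not called. Against control, 3 coactivators were higher and 0 lower, and SNW1 (0.14, adjusted p = 0.22), MAML1 (-0.17, adjusted p = 0.15) and KAT2A (-0.16, adjusted p = 0.22) were not called by edgeR. The KAT2A call was lost under DESeq2 (adjusted p = 0.1) and without vehicle control replicate 2 or 3 or P4 replicate 3. Of 12 corepressors, 4 rose, led by NCOR1 (0.46) and CIR1 (0.62), and 3 fell, among them HDAC1, which fell by 0.35. Over all genes tested, 53.0% were called in P4 against vehicle control and 54.8% in P4 against control. These role counts are a description.

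All 8 tested genes listed as targets, outside the members, were called against vehicle control, 3 higher and 5 lower. Of these 8, against control and against Nap only, 3 were higher, 3 were lower and 2, HEYL and NRARP, were not called. Over all genes tested, 53.0%, 54.8% and 49.7% were called against vehicle control, control and Nap only. HES2, a further HES repressor, stood at 77.1, 75.8 and 78.0 CPM in vehicle control and 22.0, 7.27 and 12.6 CPM in P4 cultures, a 5.53-fold fall (log2 fold change -2.47, adjusted p = 8.1e-04, edgeR). CCND1, which encodes cyclin D1, fell 2.24-fold, from 265.3, 265.2 and 266.6 CPM to 135.2, 96.6 and 120.4 CPM (log2 fold change -1.16, adjusted p = 1.5e-06, edgeR). CDKN1A, which encodes the cell cycle inhibitor p21, rose 2.71-fold, from 81.4, 87.8 and 81.9 CPM to 200.7, 239.4 and 232.2 CPM (log2 fold change 1.44, adjusted p = 4.6e-08, edgeR). The 2 cell cycle genes moved in opposite directions, and neither is specific to Notch. HEY2 rose by 1.32 (adjusted p = 0.019, edgeR) from few counts, and its call was lost without vehicle control replicate 1 or 3 or P4 replicate 3. SOX9 fell by 0.99, HEYL by 0.82 and NRARP, a feedback inhibitor of the pathway, by 0.38, while MYC rose by 0.60, each against vehicle control. Against control the log2 fold change was -0.10 for HEYL (adjusted p = 0.69, edgeR) and 0.17 for NRARP (adjusted p = 0.17, edgeR). The NRARP call was lost without vehicle control replicate 2 or 3 or P4 replicate 3.

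The ID proteins bind other helix-loop-helix factors and can block the autorepression of HES1. All 4 ID genes were called higher with P4 against vehicle control, where 53.0% of all genes tested were called in either direction. ID4 stood at 49.2, 43.1 and 45.0 CPM in vehicle control and 286.8, 472.6 and 383.5 CPM in P4 cultures (log2 fold change 3.09, SE 0.17, adjusted p = 5e-07, edgeR). ID3 was at 9.64, 8.40 and 6.24 CPM in vehicle control and at 24.9, 98.8 and 59.0 CPM in P4 cultures (log2 fold change 2.98, SE 0.62, adjusted p = 0.011, edgeR). In both genes P4 replicate 2 was the highest and P4 replicate 1 the lowest, as for JAG1, HES6 and HEY1, and the groups did not overlap. ID2 rose by 2.11 and ID1 by 1.48 on the log2 scale, and the ID1 call was lost without a filter on low counts (adjusted p = 0.059).

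**Figure D4:**
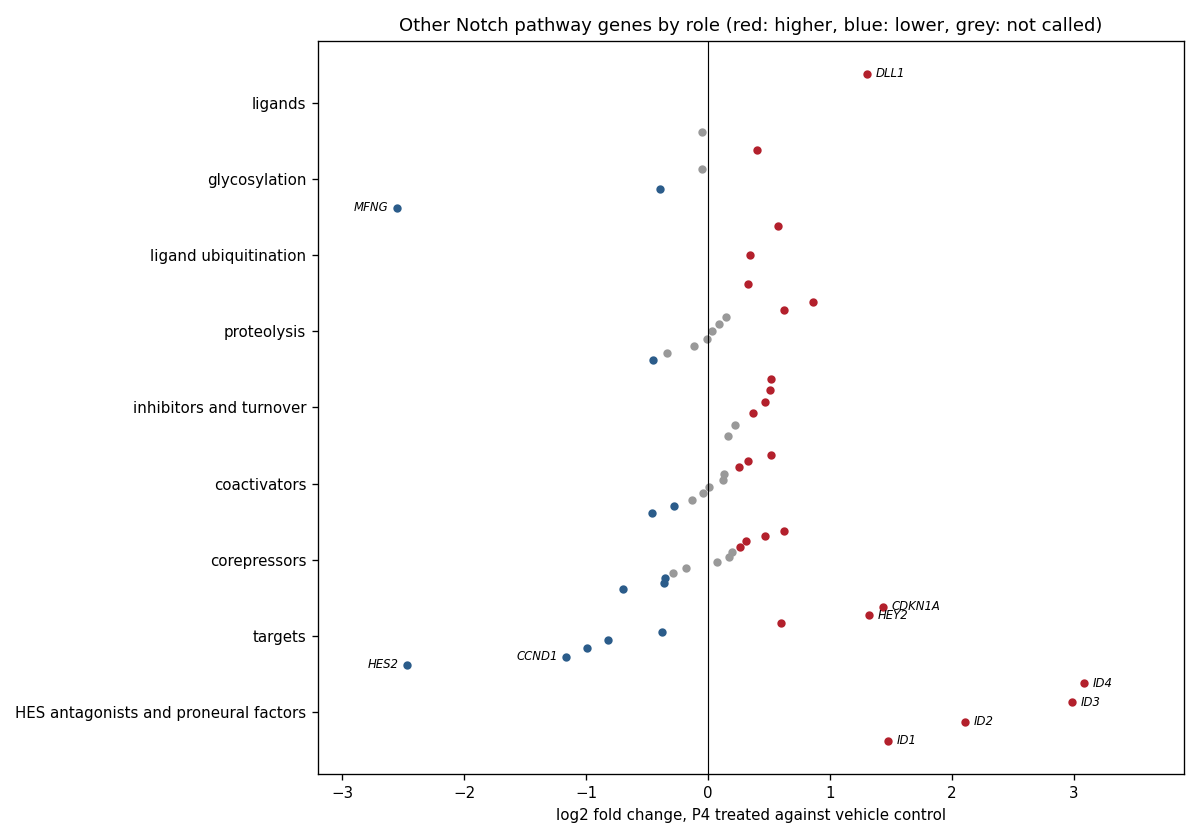
Log2 fold change of the tested pathway genes outside the 10 members in P4 against vehicle control cultures, by role, coloured by direction where the adjusted p was under 0.05. The ID genes (1.48 to 3.09) form the group furthest to the right, and MFNG (-2.55) and HES2 (-2.47) lie furthest to the left.

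In vehicle control against control, 57 of the 73 genes were tested and 14 were called, 10 higher and 4 lower, or 24.6% against 22.6% of all genes. The corepressors accounted for 5 of the 10 that rose, among them SPEN at 100.1 ± 12.8 CPM in control and 160.6 ± 7.56 CPM in vehicle control (SD, n = 3 each, log2 fold change 0.68, adjusted p = 7.1e-06, edgeR). HEYL rose by 0.72 and NRARP by 0.56 on the log2 scale, so these 2 targets, like HES1, were higher in vehicle control. Unlike HES1, neither was called in P4 against control. CCNC fell by 0.40, HES2 by 0.40, CCND1 by 0.30 and ADAM17 by 0.26.

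The PSAT1 libraries were set beside the labelled cultures for each member, without a group. In the 3 libraries headed PSAT1_P4, HES6 stood at 353.3, 415.8 and 345.0 CPM and JAG1 at 244.2, 355.3 and 343.5 CPM. In the 3 headed PSAT1, HES6 stood at 27.2, 33.2 and 35.1 CPM and JAG1 at 132.6, 129.3 and 128.9 CPM. HES1 was at 145.8, 146.0 and 146.4 CPM in the libraries headed PSAT1_P4 and at 42.4, 42.9 and 45.6 CPM in those headed PSAT1. LFNG was at 0.776, 0.808 and 0.520 CPM in the first and 5.58, 7.05 and 6.64 CPM in the second, and JAG2 was at 15.4, 15.5 and 12.0 CPM and 28.9, 37.3 and 36.4 CPM. NOTCH1 was at 59.3, 64.5 and 58.7 CPM in the first and 121.5, 176.9 and 168.4 CPM in the second, where 2 libraries exceeded all 11 labelled cultures. The other receptors spread less, with NOTCH2 between 204.4 and 291.0 CPM (median 240.0) and NOTCH3 between 43.4 and 61.5 CPM (median 47.6) over the 6 libraries.

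For each member, the protein-coding genes most like it in pattern were found as those with the smallest root mean square difference of centred log2 CPM over all 17 libraries, among 12554 genes with a mean of at least 1 CPM. For HES6 these were NUPR1 (0.21), AKNA (0.23) and ERN1 (0.24), where HES6 itself varied by 1.71 around its mean. For HES1 they were KLF6 (0.28), ZFP36 (0.28) and JUNB (0.29), against its own 0.88. For NOTCH1 they were SMTN (0.13), NAV1 (0.14) and RECQL4 (0.15), against 0.55. For LFNG they were TMPRSS2 (0.24), OTOGL (0.24) and ALPG (0.29), against 1.43. JAG1 was nearest to GCLC (0.09), FAS (0.09) and COG3 (0.10), against 0.59, and JAG2 to CKB (0.11), INF2 (0.15) and AHDC1 (0.16), against 0.65. These measures describe the same 17 libraries, carry no test and give nearest genes only.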

How the data were processed

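Total RNA from Ishikawa cultures was sequenced as stranded, single-end libraries. The authors trimmed reads with Cutadapt, filtered them by quality, kept unique Subread alignments, and deposited raw whole-number counts that featureCounts gave for the genes of GENCODE release 31. The strand setting and tool versions are not given in the sources used here, so reads of antisense genes and near-identical copies are uncertain.

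Counts were analysed with edgeR 4.0.16 in R 4.3.3 (TMM, filterByExpr with a minimum count of 10, robust quasi-likelihood fits of the 2 groups compared). P-values were adjusted by Benjamini-Hochberg over all genes tested, and an adjusted p under 0.05 was called. The alternatives were DESeq2 1.42.0, RLE and upper-quartile scaling, omitting the filter, requiring 10 counts in each library, fitting all 4 groups together, a replicate block, and leaving out each culture. The fitting code was run on simulated counts with the same dispersion for all genes and few changed genes. That run cannot vouch for the scaling or the calls made here, where P4 against vehicle control called far more genes. CPM in all 17 libraries used TMM factors. Names and positions came from GENCODE 29 on GRCh38 (58542 of 60662 genes matched), and promoters from RefSeq on GRCh38.p14 (9 of 10 members matched). Figures were drawn with matplotlib 3.10.9 in Python 3.11.15. Columns left unused numbered 0.

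The 10 members, the pathway and marker lists and the tests were chosen with earlier results of these data known. Named beside the members were, per role, the 2 pathway genes that rose and the 2 that fell with the smallest adjusted p in P4 against vehicle control, any beyond 1 log2 unit, the NOTCH2 copies, and the 3 genes nearest to a member in pattern. Not every gene that these choices name is reported here. Pathway genes named in vehicle control against control, and HEYL and NRARP, were chosen after their values were seen. Replicate numbers in the labels were checked as pairs by correlating deviations from group means over 15658 genes. For P4 and vehicle control the correlations were 0.0228, 0.042 and -0.0456, and they lay between -0.0917 and 0.0719 in the other comparisons except Nap only against control. There the 2 shared numbers gave 0.256 and 0.323, fewer than the 3 pairs asked for to call cultures paired, so the block was kept as an alternative.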

Additional observations from a re-analysis of the deposited data

Results flagged for a closer look

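The 6 PSAT1 libraries entered no comparison, and 5 of the 10 genes stood in some of them above 1.5 times the highest control culture. HES6 reached 415.8 CPM, where the highest control held 33.9 CPM. JAG1 reached 355.3 CPM against 145.7 CPM, HES1 146.4 CPM against 48.1 CPM, HES4 4.31 CPM against 1.29 CPM, and HEY1 3.14 CPM against 0.892 CPM. For each of these 5 genes, the libraries above that level were the 3 headed PSAT1_P4, which are titled PSAT1. The condition of these libraries is contradictory in the labels, so no difference between groups was tested.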

How the results depend on the processing

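Over the alternatives, 694 of the members' fold changes kept their side of the threshold, 27 lost a call, 3 gained one and 0 reversed a call, and the changes concerned NOTCH2, HEY1 and HES4. Leaving out 1 culture at a time, the other pathway genes called numbered 32 to 44 in P4 against vehicle control (38 with every culture) and 9 to 17 in vehicle control against control (14), with the 9 reached without vehicle control replicate 2. With the replicate block, 8 members were called in P4 against vehicle control, 9 against Nap only, 9 against control, 4 in vehicle control against control, 0 in Nap only against control and 4 in vehicle control against Nap only, where NOTCH2 was lost, and the block changed no other member's call. Over all genes, calls in P4 against Nap only went from 8446 to 5606 and 5502 without Nap only replicates 1 and 2. In vehicle control against control they went from 3763 to 2038 and 1908 without vehicle control replicates 2 and 3, and in vehicle control against Nap only from 4034 to 2128 with DESeq2, 1912 with all 4 groups in the fit, and 2355 and 2471 without vehicle control replicates 2 and 3. In Nap only against control, 0 became 3 with no filter, 42 with the block, and 4, 5 and 2 without control replicate 1, control replicate 2 and Nap only replicate 1, and DESeq2, all 4 groups in the fit and leaving out control replicate 3 gave 1 each. The cause was not tested. Upper-quartile scaling set the median log2 fold change of all genes in P4 against vehicle control to -0.10, from -0.01. Depth limits HEY1, HES4 and, in P4 cultures, LFNG, which rest on few counts.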

Other observations

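Over the 6 PSAT1 libraries, the values of NOTCH1, JAG1, JAG2, LFNG, HES1, HES4, HES6, HEY1 and NOTCH2 fell into 2 separate sets. These sets were the libraries headed PSAT1_P4 and those headed PSAT1. The titles divide the libraries in the same way with the names exchanged, so the split does not show which label is right. HES4 stood at 2.43, 4.31 and 2.70 CPM in the libraries headed PSAT1_P4 and at 0.962, 0.678 and 1.02 CPM in those headed PSAT1. HEY1 stood at 2.62, 3.14 and 1.77 CPM in the first and at 0.513, 0.610 and 1.14 CPM in the second. NOTCH2 was at 261.6, 284.1 and 291.0 CPM in the first and 218.3, 204.4 and 214.3 CPM in the second, and NOTCH3 overlapped, at 43.4, 48.8 and 46.4 CPM and at 44.8, 61.5 and 60.1 CPM.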
